A study of Mus musculus with 8 samples.

Results

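Arg1-high C1q macrophages are tumour macrophages in which transcripts of the complement component C1q were found together with Arg1, the arginine-splitting enzyme arginase 1, while the chemokine Cxcl9 was low. They were chosen by deposited values alone. A C1q macrophage had a mean value of C1qa, C1qb and C1qc of at least 1.5 and a mean below 0.5 for Cd3g and Trbc2, which belong to the T-cell receptor complex. Members also had an Arg1 value of at least 1.5 and a Cxcl9 value below 1. Values are on a natural log scale: where UMIs (unique molecular identifiers, 1 for each captured molecule) could be recovered, they were the log of 1 plus a gene's UMIs scaled to 10000 per cell. The rule found 566 members among 3905 C1q macrophages and 53528 cells.

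The cells came from tumours of Hepa1-6, a mouse hepatoma line, and were sequenced one by one at the 3′ ends of their transcripts with the droplet system DNBelab C4. The 4 groups were WT tumours given PBS, WT tumours given PD1 antibody, Soat1-edited tumours given PBS and Soat1-edited tumours given PD1 antibody, all by intraperitoneal injection. Soat1 encodes an enzyme that esterifies cholesterol. The edit is a knockout (KO) by the sample titles but a Soat1 knockdown by the genotype entry. A cDNA entry and an oligo entry of each group were counted as 1 sample. The labels name no host strain, sex or age, no number of animals or tumours, and no clone of the edited line. Cells were deposited in 1 pooled table, in 6 sets given by the number that ends each cell name, and nothing ties a set to a group. The sets are therefore unassigned samples, no genotype or treatment was compared, and no p-value was computed.

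As background, arginase 1 turns arginine into ornithine and urea, and macrophages make it in response to interleukin 4, low oxygen and lactate. Arginine is also needed by T cells and is the substrate of nitric oxide synthase. Interferon gamma drives another macrophage programme, with Cxcl9, Cxcl10, guanylate-binding proteins and MHC class II. Tumour macrophages can also secrete matrix metalloproteinases, which cut collagen, elastin and other matrix proteins.

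Members were found in every set. Sets 1 to 6 held 90, 81, 71, 191, 51 and 82 members. Their share of the C1q macrophages was 14.2%, 17.3%, 8.33%, 24.9%, 10.2% and 11.9% in the same order, and 14.5% over all sets, with an exact binomial 95% interval of 13.4% to 15.6%. Set 4 had the highest share and set 3 the lowest, and the intervals of these sets did not overlap. The same thresholds were used in every set, although the values of sets 2 to 6 had been altered by an unrecorded step. A threshold need not mean the same RNA level in each set, and the part of that step in the shares was not tested. Of all cells, members made up 2.45% in set 4 and 0.601% to 1.07% in the other 5 sets. C1q macrophages as a whole were 9.84% of the cells of set 4 and 6.13% to 7.77% elsewhere. Intervals here and below cover counting error only, and the number of cells of a type that survive dissociation is part of each share.

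**Figure D1:**
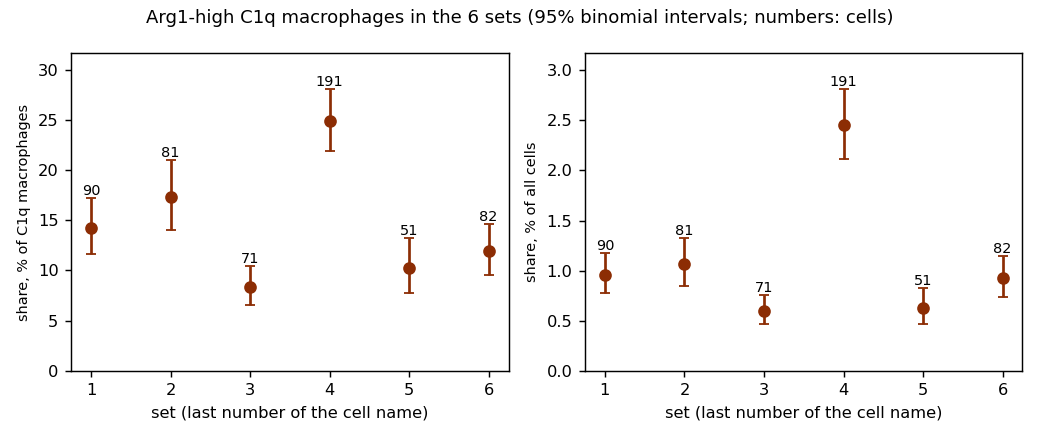
Share of Arg1-high C1q macrophages in each of the 6 cell sets, as a percentage of C1q macrophages (left) and of all cells (right). Points are shares, bars are exact binomial 95% intervals and the numbers give member cells; set 4 is highest in both panels, at 24.9% and 2.45%.

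The remaining C1q macrophages were 1925 Cxcl9-positive cells, with a Cxcl9 value of at least 1, and 1414 cells low in both genes. Arg1 and Cxcl9 did not exclude each other. An Arg1 value of at least 1.5 was found in 320 of the 1925 Cxcl9-positive cells, or 16.6%, and in 566 of the 1980 Cxcl9-low cells, or 28.6%.

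The values that chose the members are given as a description. In sets 1 to 6 the mean Arg1 value of members was 2.80, 2.48, 2.86, 2.60, 2.69 and 2.64, against 0.25 to 0.38 in the other C1q macrophages. At the border, the lowest member had an Arg1 value of 1.51 and the highest Cxcl9-low cell left out had 1.498. Within 0.25 above the threshold lay 58 Cxcl9-low cells, and within 0.25 below it 48, so the threshold falls in a run of values and not in a gap. UMIs could be counted in set 1, where members had a median of 4 Arg1 UMIs and at most 36. A single Arg1 UMI made 20 of the 90 members, since 1 UMI reaches the threshold in any cell with fewer than 2872 UMIs. That depth limit applied to 56 of the 90 members and to 277 of the 542 other C1q macrophages of set 1. For Cxcl9, 1 UMI reaches the limit of 1 only in cells with fewer than 5819 UMIs, and the 90 members held 6 Cxcl9 UMIs. Whether a cell counts as Cxcl9-low thus depends on its depth too, and that part was not tested.

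Depth differed between the classes. In set 1 the members had a median of 2267 UMIs, from 1001 to 30879, and the other C1q macrophages a median of 2805. Cxcl9-positive cells had 3261 and cells low in both genes 2406. Levels below are CPM, the UMIs of a gene summed over a class and scaled to 1000000 UMIs of its cells, which held 298467 in members and 2220761 in the others. The 3′ assay counts 1 end per molecule, so CPM needs no correction for length. The share that depth or free RNA has in a difference was not tested. Where deep and shallow cells differ, a CPM follows the deep ones, so the mean deposited value per cell is given beside it for each set. In sets 2 to 6 the values had been altered by an unrecorded step that put numbers below 0 in every cell, and differences there are differences of deposited values.

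The labels list the cell type as liver cancer cell. Members carried the macrophage genes Mertk (302 CPM in members, 339 in others), Mrc1 (506 and 451) and Ms4a7 (255 and 208), each at most 2.14 CPM in the 1163 T cells of set 1. Adgre1, Csf1r and Cd68 were not analysed here. The 10 macrophage markers analysed, 3 of them genes of the rule, summed to 10916 CPM in members and 12089 CPM in others. Per cell the median of their sum was 89.2 UMIs per 10000 in members and 129 in others. Of the 7 outside the rule, 5 had a ratio above 1 in set 1. In mean value, 0 of the 7 were higher and 2 lower in every set, beside 5.27% and 15.6% of all genes. Markers of T and NK cells summed to 101 CPM in members and 83.3 CPM in others, fibroblast markers to 26.8 and 25.2 CPM, and endothelial markers to 3.35 and 4.50 CPM. The 10 hepatoma markers, led by Afp, Trf and Alb, summed to 5180 CPM in members and 3739 CPM in others. Per member cell their sum ran from 0 to 164 UMIs per 10000 with a median of 37.8, against 0 to 132 with a median of 31.7 in the others. T cells of set 1 held 499 CPM of Afp, so hepatoma RNA is found in another cell type too, and its part in the values below was not tested. No member was called a doublet in set 1, against 9 of the 542 others.

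Over all genes, 118 of the 1122 genes with at least 10 UMIs were 2-fold higher in members than in the other C1q macrophages of set 1, which is 10.5%. The 169 genes that were 2-fold lower are 15.1%. With at least 100 UMIs, 40 of 513 genes (7.8%) were 2-fold higher and 58 (11.3%) lower. The median log2 ratio of the tested genes was -0.05. A difference of means above 0.25 in every set was met by 10 of 1993 genes (0.502%), and one below -0.25 by 27 genes (1.35%). A difference above 0 in every set was met by 105 genes (5.27%) and one below 0 by 311 (15.6%). The 10 higher genes were Mmp12, Ctsl, Hmox1, Hilpda, Ero1l, Slc7a2, Adam8, Fabp5, Ccl2 and Lgmn. They encode proteases (Mmp12, Ctsl, Adam8, Lgmn), proteins induced by low oxygen or haem (Hilpda, Ero1l, Hmox1), a transporter of arginine (Slc7a2), a fatty acid binding protein (Fabp5) and a monocyte attractant (Ccl2). Since the same cells' values chose the members, these counts are descriptions.

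**Figure D2:**
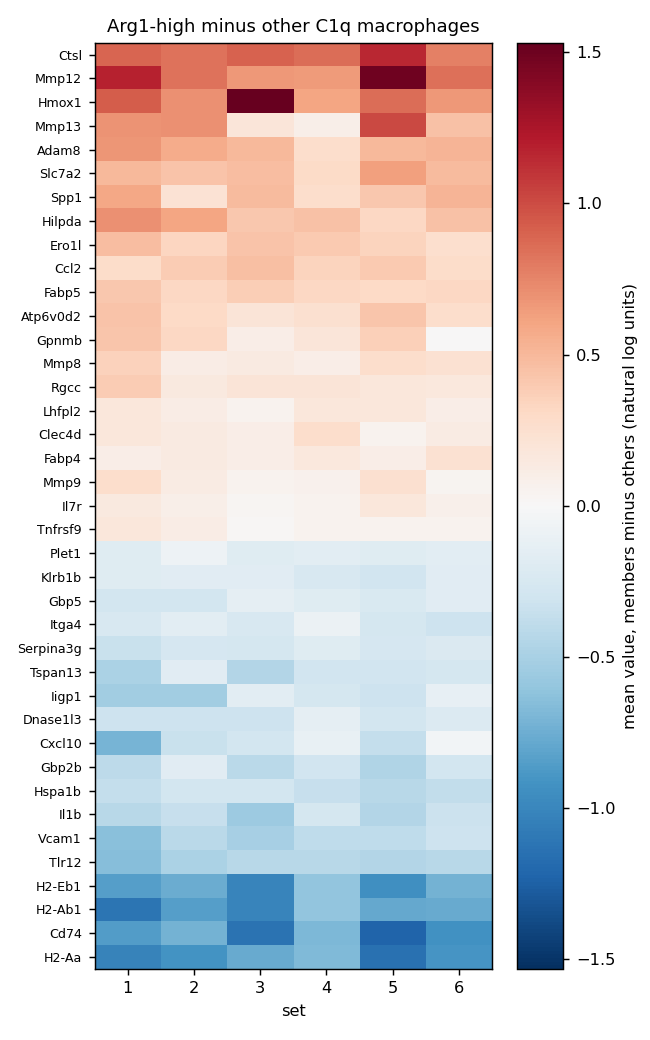
Difference of mean deposited values (natural log units), members minus other C1q macrophages, for genes named in the text (rows) in each of the 6 sets (columns); red is higher in members and blue lower. Ctsl, Mmp12 and Hmox1 are at least 0.60 higher in every set, and H2-Aa, H2-Ab1, H2-Eb1 and Cd74 have differences of -0.60 or lower.

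Several proteases that break down matrix were higher in members. Mmp12, the macrophage elastase, had 10919 CPM in members and 2895 CPM in the others of set 1, a ratio of 3.77 (3.61 to 3.93). Without the 1 member cell that held 402 of its 3259 UMIs, the ratio was 3.39. The mean Mmp12 value of members in sets 1 to 6 was 3.53, 3.36, 3.23, 2.97, 4.23 and 3.26, against 2.35, 2.53, 2.56, 2.32, 2.73 and 2.42 in the others. Within each set the members' mean was thus higher, by 0.65 to 1.49. Mmp13, a collagenase, had 3803 and 1299 CPM, a ratio of 2.93 (2.73 to 3.14), or 2.66 without the member cell richest in it. Its difference of means was 1.01 in set 5, 0.68 and 0.70 in sets 1 and 2, 0.45 in set 6, and only 0.18 and 0.08 in sets 3 and 4. Set 4, with the most members, had the smallest difference for both enzymes, and set 5, with the fewest, the largest.

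Most members held RNA of both enzymes. Of the 90 members of set 1, 62 had UMIs of Mmp12 and Mmp13, 13 of Mmp12 alone, 3 of Mmp13 alone and 12 of neither. Mmp12 was detected in 83.3% of members, 71.2% of the others and 9.54% of T cells, which were deeper at a median of 5068 UMIs. With every cell thinned to 1000 UMIs these shares were 78.9%, 59.2% and 2.32%. The thinned share for Mmp13 was 62.2% in members, 50.2% in others and 0.946% in T cells. Both enzymes were thus common in other C1q macrophages, and the members stood out by level more than by presence.

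Ctsl, a lysosomal and secreted cysteine protease, had 2439 CPM in members and 721 in others, a ratio of 3.38 (3.10 to 3.69), or 2.66 without the member cell that held most of its UMIs. Its difference of means lay between 0.78 and 1.16 in all sets. Adam8, a membrane-bound metalloproteinase, had 318 and 51.3 CPM, a ratio of 6.20 (4.67 to 8.21), with differences of 0.27 to 0.68. Adam8 was detected in 24.4% of thinned members, 4.80% of others and 5.93% of T cells. Mmp8, a collagenase first known from neutrophils, had 46 UMIs in members and 10 in the others, a ratio of 34.2 (17.0 to 76.1). It was found in 15 of the 90 members and 6 of the 542 others. Neutrophil markers, of which Mmp8 is one, summed to 237.9 CPM in members and 137 in others, while S100a9 had 13.4 and 22.5 CPM, Csf3r 23.5 and 45.5, and Retnlg was at 0 in members. Mmp9, a gelatinase, had a ratio of 8.04 (6.25 to 10.3), but 1 cell held 69 of its 134 UMIs, and the ratio without it was 4.35.

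Not all proteases followed. Of 17 matrix breakdown genes, 14 were tested, 7 were 2-fold higher and none 2-fold lower, with a median log2 ratio of 1.04. The shares over all tested genes were 10.5% higher and 15.1% lower. The inhibitor Timp2 had a ratio of 1.03 (0.762 to 1.38) and the urokinase gene Plau 0.996 (0.582 to 1.61). Ctss, a cathepsin of the antigen-presenting compartment, had a ratio of 0.909 (0.829 to 0.995) and was lower in mean value in all 6 sets, by -0.25 to -0.90.

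Promoter sequences are shown for 2 proteases and 2 hypoxia genes that were higher in members. All were chosen because they held the motif searched for. They are from RefSeq (GRCm38.p6), which held windows for 1431 of the 2000 genes from 250 bases before to 50 after the start; Arg1 was not matched. The bases before the start are printed 5′ to 3′. In the protease pair, capitals mark the AP-1 motif TGANTCA on either strand, which begins 35 bases before the start in Mmp13 and 44 before it in the second of 2 Mmp12 windows. The windows of Mmp8 and Adam8 and the first Mmp12 window were searched too and held no AP-1 match.
Mmp13, chr9:7272264-7272513, plus strand: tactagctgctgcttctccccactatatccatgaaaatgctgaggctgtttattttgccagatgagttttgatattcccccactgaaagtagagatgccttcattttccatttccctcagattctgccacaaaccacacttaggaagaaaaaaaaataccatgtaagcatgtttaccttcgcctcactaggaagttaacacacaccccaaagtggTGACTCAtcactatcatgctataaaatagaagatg
Mmp12, chr9:7347124-7347373, plus strand: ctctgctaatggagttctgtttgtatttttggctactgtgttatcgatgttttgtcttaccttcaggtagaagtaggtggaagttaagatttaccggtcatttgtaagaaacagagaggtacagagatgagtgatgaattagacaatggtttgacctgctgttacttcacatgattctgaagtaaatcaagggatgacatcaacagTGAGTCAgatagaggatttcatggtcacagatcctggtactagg
The AP-1 motif was found in 8.97% of all 27025 genes with a window, in 4 of the 12 matched matrix breakdown genes (33.3%) and in 7 of the 19 matched interferon response genes (36.8%). Both a group that was high in members and one that was low thus held it. A match is a run of letters, and no binding was measured.

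Genes of the low-oxygen response were higher as a group. Of the 16 hypoxia and glycolysis genes tested, 8 were 2-fold higher and none 2-fold lower in members, beside 10.5% and 15.1% of all tested genes. A ratio above 1 was found for 15 of them, and the median log2 ratio was 0.91. Hilpda, a lipid droplet protein induced by low oxygen, had 633 CPM in members and 197 in others, a ratio of 3.22 (2.70 to 3.83). Its mean value in sets 1 to 6 was 1.34, 1.17, 1.12, 1.16, 1.03 and 1.14 in members and 0.56 to 0.72 in the others. Within each set it was higher in members, by 0.32 to 0.70. Ero1l, an oxidase for protein folding in the endoplasmic reticulum, had 342 and 105 CPM, a ratio of 3.24 (2.54 to 4.11), and was higher in every set by 0.25 to 0.47.

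Vegfa, the vascular growth factor, had a ratio of 2.26 (1.67 to 3.02), Ndrg1 2.27 (1.83 to 2.80), and Ankrd37 2.79 (1.88 to 4.07). Egln3, the prolyl hydroxylase that marks hypoxia-inducible factor for destruction, had 2.29 (1.78 to 2.92). All of these had differences above 0 in every set. Bnip3, a mitophagy receptor, had a ratio of 2.05 (1.69 to 2.48) but its difference of means ran from -0.02 to 0.51. Adm, the vasodilator adrenomedullin, had a ratio of 16.8 (10.1 to 28.8), or 7.87 without 1 cell that held 28 of its 52 UMIs, and its difference of means ran from -0.01 to 0.21, above 0 in 5 of 6 sets. Glycolytic enzymes differed less, with Pgk1 at 1.55 (1.32 to 1.81), Aldoa at 1.38 (1.13 to 1.68) and Gapdh at 1.27 (1.03 to 1.54), and Gapdh was higher in 3 of 6 sets. Hilpda was detected in 34.4% of thinned members, 16.2% of others and 17.0% of T cells, so the share in the other C1q macrophages was no higher than in T cells.

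The hypoxia pair is printed with the motif ACGTG on either strand in capitals, the core to which hypoxia-inducible factors bind. It begins 63 bases before the start in Ero1l (Ero1a in RefSeq) and 229 before it in Egln3.
Ero1l, chr14:45318573-45318822, minus strand: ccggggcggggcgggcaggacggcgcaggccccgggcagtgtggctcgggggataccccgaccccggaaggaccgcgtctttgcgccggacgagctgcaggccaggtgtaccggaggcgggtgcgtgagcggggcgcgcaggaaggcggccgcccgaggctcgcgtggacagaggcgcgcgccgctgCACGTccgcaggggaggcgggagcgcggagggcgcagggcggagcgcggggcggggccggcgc
Egln3, chr12:54203875-54204124, minus strand: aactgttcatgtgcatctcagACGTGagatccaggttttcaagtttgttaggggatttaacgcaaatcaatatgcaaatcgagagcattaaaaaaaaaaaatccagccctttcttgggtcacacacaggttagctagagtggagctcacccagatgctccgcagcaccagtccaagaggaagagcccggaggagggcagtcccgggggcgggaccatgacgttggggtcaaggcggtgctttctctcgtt
ACGTG was found in the windows of 13 of the 15 matched hypoxia and glycolysis genes (86.7%), 21.8% of all genes with a window and 21.9% of the matched genes of the table. None of the 9 matched genes among the 12 with the largest ratio, listed next, held it. The letters CACGTG, the E-box, contain ACGTG and were found in 8.09% of all genes. The hypoxia list was drawn up from genes known to respond to low oxygen, so this share describes the list.

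**Figure D3:**
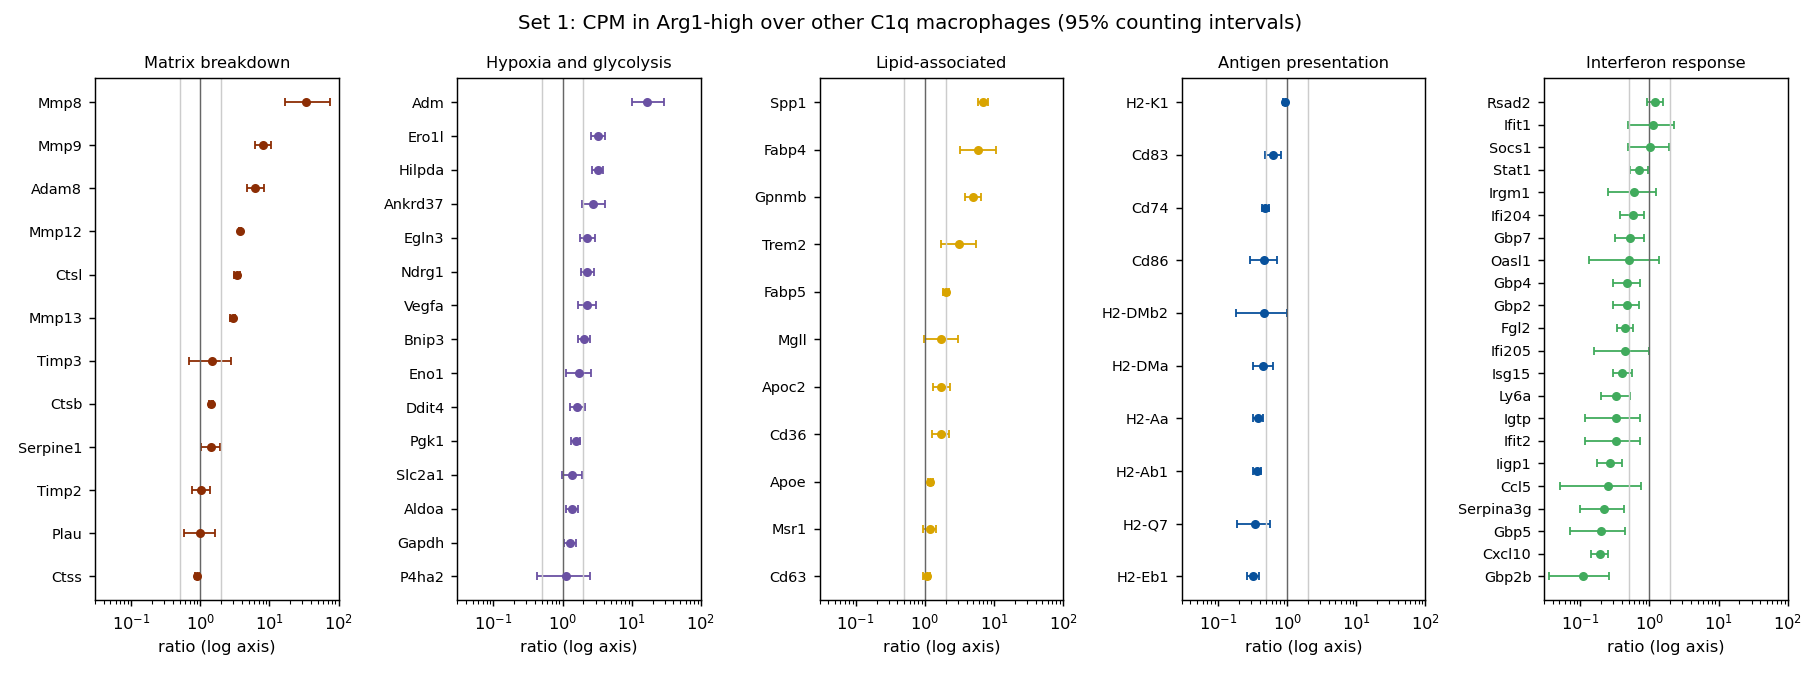
Ratio of CPM in members over other C1q macrophages of set 1, on a log axis, for tested genes of 5 lists; bars are exact 95% counting intervals, the dark line is a ratio of 1 and the light lines are 2-fold. Most matrix, hypoxia and lipid genes lie right of 1, all 10 antigen presentation genes lie left of it, and H2-K1 is nearest to 1 among these at 0.935.

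The 12 genes with the largest ratio, among genes of at least 50 CPM with one sign in all sets, were Mmp8, Rgcc, Mmp9, Spp1, Tnfrsf9, Il7r, Lhfpl2, Adam8, Fabp4, Gpnmb, Clec4d and Atp6v0d2. Rgcc, a cell cycle regulator, had 38 UMIs in members and 24 in the others, a ratio of 11.8 (6.89 to 20.5). Atp6v0d2, a subunit of the proton pump of lysosomes, had 204 and 47.3 CPM, a ratio of 4.32 (3.10 to 5.98), with differences of 0.19 to 0.43. Clec4d, a C-type lectin of myeloid cells, had 4.70 (2.70 to 8.04). Tnfrsf9 and Il7r rest on 19 and 17 member UMIs, and Tnfrsf9 stood at 407 CPM in T cells, and the part of T-cell RNA in it was not tested.

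Lipid-associated macrophage genes leaned the same way, with 5 of 11 tested genes 2-fold higher, none 2-fold lower and a median log2 ratio of 0.79. Of all tested genes, 10.5% were 2-fold higher and 15.1% lower. Spp1, the secreted phosphoprotein osteopontin, had 1062 CPM in members and 154 in others, a ratio of 6.90 (5.90 to 8.06), which was 4.87 without 1 cell that held 97 of its 317 UMIs. Its difference of means lay between 0.23 and 0.59 in all sets. T cells had 108 CPM of it. Gpnmb, a glycoprotein of lipid-laden macrophages, had a ratio of 4.93 (3.78 to 6.40), or 3.35 without 1 cell, with differences of 0.01 to 0.42. Fabp4, another fatty acid binding protein, had 23 and 29 UMIs, a ratio of 5.90 (3.26 to 10.6), or 3.15 without 1 cell that held 12. Fabp5 had 2091 and 1032 CPM, a ratio of 2.03 (1.85 to 2.21), and the narrowest range over sets, 0.31 to 0.41. Trem2, a lipid-sensing receptor, had 18 and 43 UMIs, a ratio of 3.12 (1.69 to 5.52), and was higher in 5 of 6 sets. Apoe had a ratio of 1.20 (1.11 to 1.30) and Cd63 1.06 (0.929 to 1.20).

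Among the other genes of arginine handling, Slc7a2, a cationic amino acid transporter that imports arginine, had 466 CPM in members and 184 in others, a ratio of 2.53 (2.08 to 3.08). Its mean value was 0.98 to 1.37 in members and 0.58 to 0.74 in others over the 6 sets. It was the 1 gene of the 6 tested in this list that was 2-fold higher, and none was 2-fold lower. Over all tested genes these shares were 10.5% and 15.1%. Nos2, the inducible nitric oxide synthase that competes for arginine, had 5 UMIs in members and 50 in the others, a ratio of 0.744 (0.232 to 1.85). A difference of Nos2 was not detectable at this depth in set 1, while its mean value was higher in members in 5 of 6 sets. Arg2, the mitochondrial arginase, had a ratio of 1.81 (0.811 to 3.68). Hmox1, which breaks down haem, had 2319 and 763 CPM, a ratio of 3.04 (2.78 to 3.32), or 2.62 without the member cell richest in it. Its differences were 0.60 to 1.53, largest in set 3. The other 5 iron and haem genes had ratios of 1.05 to 1.55.

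MHC class II genes were lower in members. H2-Aa had 560 CPM in members and 1472 in others, a ratio of 0.380 (0.323 to 0.444). Its mean value was 1.05, 1.22, 1.34, 1.21, 0.98 and 1.15 in members of sets 1 to 6 and 1.89 to 2.14 in the others. Within each set it was lower in members, with differences of -0.68 to -1.15. H2-Ab1 had a ratio of 0.371 (0.325 to 0.423), H2-Eb1 0.322 (0.260 to 0.395), and Cd74, the invariant chain that escorts class II molecules, 0.486 (0.434 to 0.542). All of these had differences of means of -0.60 or lower in every set. Of the 10 antigen presentation genes tested 8 were 2-fold lower and none was 2-fold higher, beside 15.1% and 10.5% of all tested genes. The median log2 ratio was -1.11. H2-DMa, which loads peptides on class II, had 0.449 (0.317 to 0.621), and the costimulator Cd86 0.470 (0.294 to 0.717). The class I gene H2-K1 had 0.935 (0.878 to 0.995), with differences from -0.34 to 0.22. H2-Aa was detected in 28.9% of thinned members, 60.0% of others and 3.01% of T cells. MHC genes, guanylate-binding proteins and Klrb1b belong to families of similar sequence, so single-gene counts within them may be shared by the aligner.

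Interferon response genes were lower too. The rule kept Cxcl9 low in members, a gene of the same response and of the programme that holds MHC class II. Class II genes and the interferon group are thus not independent of the choice of cells. Of 25 genes tested, 14 were 2-fold lower and 1 (Ido1, with 4 and 9 UMIs) was 2-fold higher, beside 15.1% and 10.5% of all tested genes. The median log2 ratio was -1.09. A difference below 0 in every set was met by 16 of the 25, beside 15.6% of all genes. Cxcl10, a T-cell attractant, had 178 CPM in members and 934 in others, a ratio of 0.190 (0.142 to 0.25), with differences of -0.72, -0.34, -0.29, -0.12, -0.36 and -0.05 in sets 1 to 6. Gbp2b had a ratio of 0.110 (0.0356 to 0.260), Gbp5 0.198 (0.0717 to 0.437) and Iigp1, a GTPase that attacks pathogen vacuoles, 0.270 (0.172 to 0.405). Genes of the type I interferon response did not move as one: Isg15 had 0.408 (0.293 to 0.554), Rsad2 1.21 (0.911 to 1.58) and Ifit1 1.12 (0.487 to 2.26).

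The 12 lowest genes by the same rule were Gbp2b, Dnase1l3, Plet1, Cxcl10, Klrb1b, Gbp5, Serpina3g, Tlr12, Iigp1, Hspa1b, Itga4 and Tspan13. Against the cells low in both genes, intervals reached past 1 for Klrb1b, at 0.661 (0.162 to 2.03), and Serpina3g, at 0.632 (0.270 to 1.32). They did so too for Dnase1l3, at 0.439 (0.133 to 1.13), and Gbp5, at 0.443 (0.153 to 1.06). Serpina3g was higher in members than in these cells in 3 of 6 sets. The rest of the 12 had intervals below 1. Dnase1l3, a secreted DNase of macrophages and dendritic cells, had 5 UMIs in members and 307 in others, a ratio of 0.121 (0.0391 to 0.286). Tlr12, an endosomal Toll-like receptor, had 70.4 and 297 CPM, a ratio of 0.237 (0.146 to 0.366), and differences of -0.65 to -0.42. Plet1 and Klrb1b had 4 member UMIs each, of which 1 cell held 3, and their ratios of 0.144 and 0.195 were 0.0370 and 0.0489 without that cell. Hspa1b, an inducible Hsp70, had a ratio of 0.276 and stood at 902 CPM in T cells. Further genes lower by more than 0.25 in every set were the cysteine hydrolase Naaa, at 382 and 807 CPM, and the cytoskeletal adaptor Aif1, at 459 and 910 CPM.

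Cytokines split. Il1b had 446 CPM in members and 742 in others, a ratio of 0.601 (0.499 to 0.717), and was lower in every set by -0.27 to -0.55. The neutrophil attractants Cxcl1 and Cxcl3 had ratios of 2.95 (2.05 to 4.18) and 2.63 (1.89 to 3.60), each higher in 5 of 6 sets. Inhba, a subunit of activin A, had 16 and 27 UMIs, a ratio of 4.41 (2.22 to 8.48). In all, 5 of the 15 inflammatory cytokine genes tested were 2-fold higher and 1, Acod1 with 0 and 15 UMIs, lower, with a median log2 ratio of 0.42, or 0.53 without Acod1. Among chemokines, Ccl2 had 851 and 445 CPM, a ratio of 1.91 (1.66 to 2.20), and was higher in every set by 0.28 to 0.46. Ccl6 had 2.32 (2.07 to 2.60), Ccl9 2.34 (1.81 to 2.98) and Pf4 2.98 (2.51 to 3.52), all higher in 6 of 6 sets. Ccr2, the receptor for Ccl2, had a ratio of 0.478 (0.299 to 0.729). In this list 4 of 13 were 2-fold higher and 1 lower, with a median of 0.29. Over all tested genes, 10.5% were 2-fold higher and 15.1% lower.

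Arginase 1 is often read together with genes induced by interleukin 4. None of the 13 tested genes of that list was 2-fold higher in members and 3 were 2-fold lower, beside 10.5% and 15.1% of all tested genes. Whether so short a list departs from these shares was not tested. The 3 lower genes were Ch25h, and Ccl17 and Ccl22 with no member UMIs. Over the 13 genes the log2 ratio had a median of -0.52, or -0.22 without the genes at 0. Mgl2, a lectin, had a ratio of 0.499 (0.322 to 0.742) and was lower in all sets. Ccl24, an eosinophil attractant, had 0.545 (0.499 to 0.595) with differences from -0.82 to 0.15 against all other C1q macrophages. Split by Cxcl9, its mean value was higher in Arg1-high than in Arg1-low cells in 6 of 6 sets among Cxcl9-positive cells (0.18 to 0.66) and in 5 of 6 among Cxcl9-low cells (-0.27 to 0.63), although its set 1 ratio in the latter was 0.873 (0.792 to 0.961). Of the 14 genes of the list, 3 were higher and 2 lower in every set among Cxcl9-positive cells, beside 3.01% and 10.5% of all genes. Among Cxcl9-low cells 1 was higher and 2 lower, beside 4.06% and 9.38%. Retnla had 0.881 (0.712 to 1.08), Chil3 had 1 and 9 UMIs, and for Ccl17 and Ccl22 the others lay below the level that 3 counts in members would give, so no fold is given. Resident-type and scavenger genes were mixed, with 3 of 14 2-fold higher and 3 lower, beside 10.5% and 15.1% of all tested genes. Their median was -0.01. F13a1, a transglutaminase of monocyte-derived macrophages, had a ratio of 2.88 (2.28 to 3.62) and Vcam1 0.811 (0.731 to 0.898), while the mannose receptor Mrc1 had 1.12 (0.940 to 1.33). Cd163 had 0 UMIs in members and 34 in the others, which is at least 1.52-fold lower, against a floor of 3 counts over the class.

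Cell cycle genes were lower on balance: none of 15 had a ratio above 1, and the median log2 ratio was -0.64, with Mki67 at 0.565 (0.276 to 1.04). Of the 15, 3 were 2-fold lower, beside 15.1% of all tested genes. Of 7 tested checkpoint and suppressive genes, 2 were 2-fold higher, namely Ido1 and Pdpn, and 1 was 2-fold lower, Tgfbi. Over all tested genes, 10.5% were 2-fold higher and 15.1% lower. Pdpn, podoplanin, had 13 and 10 UMIs, a ratio of 9.67 (3.92 to 24.6), and was higher in 6 of 6 sets. Cd274, the ligand PD-L1 of the receptor that the antibody binds, had 151 and 136 CPM, a ratio of 1.11 (0.794 to 1.52). The monocyte gene Ly6c2 had 0 UMIs in members and 49 in others, at least 2.20-fold lower. Monocyte markers as a list did not go one way. Of 8 tested, 1 was 2-fold higher and 4 were lower, beside 10.5% and 15.1% of all tested genes. The list summed to 1354 CPM in members and 1010 in others. The difference of its mean value ran from -0.04 to 0.06 over the sets.

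Because the other C1q macrophages mix Cxcl9-positive and Cxcl9-low cells, Arg1-high and Arg1-low cells were also set side by side within each. Of set 1, 39 Arg1-high Cxcl9-positive, 264 Arg1-low Cxcl9-positive and 239 Arg1-low Cxcl9-low cells could be compared with the 90 members. Mmp12 had 10919 CPM in members, 7165 in Arg1-high Cxcl9-positive cells, 2604 in Arg1-low Cxcl9-positive cells and 2734 in cells low in both. Mmp13 had 3803, 3464, 1288 and 1012 CPM in the same order. By mean deposited value the order of the Arg1-high classes turned, since Arg1-high Cxcl9-positive cells lay above members in every set but set 5 for both enzymes, for example at 3.94 against 3.53 for Mmp12 and 2.79 against 2.44 for Mmp13 in set 1. Both enzymes thus went with Arg1 in Cxcl9-positive cells as well. Within Cxcl9-positive cells the difference of means with Arg1 lay between 0.89 and 1.52 for Mmp12 over the 6 sets, and within Cxcl9-low cells between 0.85 and 1.91. Ctsl, Hmox1, Hilpda, Ero1l, Ndrg1, Slc7a2, Fabp5 and Spp1 were likewise higher with Arg1 in 6 of 6 sets on both sides. Over all genes, a difference above 0 in 6 of 6 sets was met by 3.01% within Cxcl9-positive and by 4.06% within Cxcl9-low cells.

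**Figure D4:**
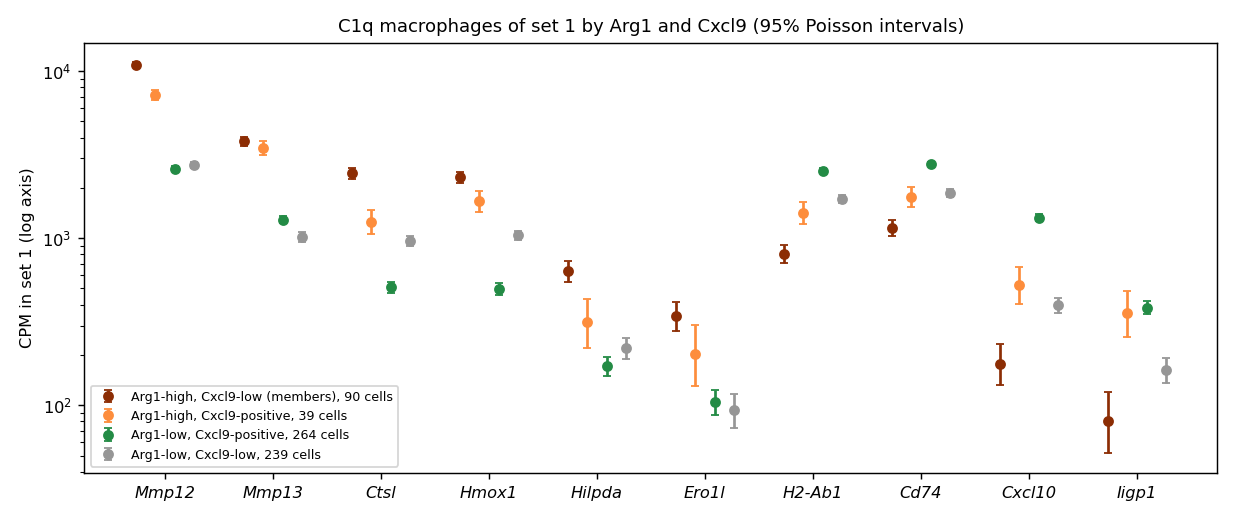
CPM of 10 genes (log axis) in the 4 classes of set 1 C1q macrophages made by Arg1 and Cxcl9; points are levels and bars exact Poisson 95% intervals. Mmp12 and Mmp13 are higher in both Arg1-high classes, H2-Ab1 and Cd74 are lower in members than in any other class, and Cxcl10 is lowest in members at 178 CPM and highest in Arg1-low Cxcl9-positive cells at 1329; by mean value Cxcl10 was lowest in members in sets 1 and 5 only.

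Class II genes were lower with Arg1 on both sides. H2-Ab1 had 804 CPM in members, 1414 in Arg1-high Cxcl9-positive cells, 2535 in Arg1-low Cxcl9-positive cells and 1717 in cells low in both. H2-Aa, H2-Ab1, H2-Eb1 and Cd74 were lower with Arg1 in 6 of 6 sets within Cxcl9-positive and within Cxcl9-low cells. A difference below 0 in 6 of 6 sets was met by 10.5% and 9.38% of all genes. Interferon genes gave another picture. Cxcl10, Gbp2b, Gbp5 and Iigp1 were lower with Arg1 in 6 of 6 sets among Cxcl9-positive cells, but among Cxcl9-low cells in 4, 5, 5 and 4 sets. Of the 25 interferon genes, 12 were lower in every set on the first side and 5 on the second. Whether these counts differ was not tested. The split did not level Cxcl9 itself, which was lower with Arg1 in every set on both sides. Its median difference was -0.22 among Cxcl9-positive cells and -0.01 among Cxcl9-low cells. In set 1, Arg1-high Cxcl9-positive cells had 940 CPM of Cxcl9 and Arg1-low Cxcl9-positive cells 1458. The part of Cxcl9 level and of depth in these contrasts was not tested. Nos2 was higher with Arg1 in 6 of 6 sets on both sides, by 0.11 to 0.31 and by 0.00497 to 0.22.

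Against the cells low in both genes alone, whose depth was nearest to that of the members, 77 of 948 genes (8.12%) were 2-fold higher in members and 103 (10.9%) lower. The genes higher by more than 0.25 in every set numbered 10 (0.502%) and the lower 7 (0.351%). The higher ones were Mmp12, Mmp13, Ctsl, Hmox1, Basp1, Hilpda, Ero1l, Fabp5, Slc7a2 and Adam8, and the lower ones Naaa, Aif1, H2-Eb1, Pld4, H2-Aa, H2-Ab1 and Marcks. The list medians kept their sign, at 1.01 for matrix breakdown, 0.79 for hypoxia and glycolysis, -0.71 for antigen presentation and -0.64 for interferon response, against -0.07 for all tested genes. F13a1 and Ccl6, high against all others, had ratios of 1.22 and 1.24 here, and Spp1 had 3.99. Ccl6 was above the cells low in both in 6 of 6 sets (0.05 to 0.44), but F13a1 in only 2 (-0.28 to 0.10). Pf4, at 657 CPM in members and 389 in these cells, was above them in 4 of 6 sets (-0.07 to 0.41). Gpnmb, with a ratio of 3.67, was above them in 5 of 6 sets (-0.11 to 0.35). Cxcl10 had a ratio of 0.448, Gbp2b 0.293 and Iigp1 0.496, nearer to 1 than against all others, while Mmp13 at 3.76 was farther from it. By difference of means, Cxcl10 and Iigp1 were each higher in members than in these cells in 2 of 6 sets and Gbp2b in 1.

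Members also differed among themselves. The 20 members of set 1 with 1 Arg1 UMI, the 50 with 2 to 9 and the 20 with 10 or more had median depths of 1512, 2688 and 3632 UMIs. Mmp12 had 4684, 8703 and 15981 CPM in these, Mmp13 had 2998, 3471 and 4522, and Spp1 had 62.5, 652 and 1953. Il1b went the other way, with 625, 532 and 267 CPM. Cells with 1 Arg1 UMI thus lay between the other C1q macrophages and the rest of the members for Mmp12, and 212 of the 317 Spp1 UMIs lay in the cells with 10 or more Arg1 UMIs. The order follows depth as well as Arg1, and the part of depth was not tested. Mmp12 and Spp1 were found together in 30 of the 90 members and Mmp12 without Spp1 in 45.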

How the data were processed

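Tumour cells of 4 groups (8 entries) were profiled by 3′ single-cell RNA sequencing. Per the labels' protocols, UMIs were counted with PISA and cells chosen with DropletUtils. The submitters' processing notes name STAR 2.7.2b, GRCh38 and mm10. The symbols are those of mouse genes, and the build behind the table is not known, so no coordinates of measured reads are given. The authors deposited 1 table of 2000 genes on the natural log scale. All 53528 columns belong to no known sample.

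In set 1 (9370 cells), values were never below 0, and whole UMI counts were recovered in 100% of the cells. UMI counts come from that set alone. Ratios are of CPM with exact conditional Poisson 95% intervals; log2 ratios and 2-fold calls use a pseudocount of 1 CPM and genes with at least 10 UMIs. Per-set differences of means were called past 0.25. Shares have Clopper-Pearson intervals. UMIs remove PCR copies, but intervals cover counting error only. Floors are 3 counts per class. Cell names hold running numbers and no barcode sequences (12741 of 22421 recur between sets), so barcodes shared between sets were not counted. A second field of the names read N1 in 77.6% of members, 66.8% of other C1q macrophages and 65.9% of all cells. The part of this field in the differences was not tested. Scrublet (scanpy 1.11.5, expected rate 6%) called 91 set 1 cells, or 0.971%, as doublets. They were kept. T cells for background detection had a mean of Cd3g and Trbc2 of at least 1.5 and a C1q mean below 0.5.

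Members, lists and tests were chosen with earlier results of these data known, and lists are described by counts and medians only. Named genes were the 12 per direction with the largest set 1 ratio, at least 50 CPM in the higher class and one sign in all sets, besides list members. The 7 genes of the membership rule were left out of counts. Alternatives changed thresholds, filters, pseudocount, depth, doublets, sets and the comparison class. The UMI recovery and calls were tested on simulated data. Python 3.11.15, numpy 2.4.6, scipy 1.17.1 and pandas 2.3.3 were used.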

Additional observations from a re-analysis of the deposited data

Results flagged for a closer look

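The share of Arg1-high C1q macrophages among all cells stood apart in set 4, at 2.45% (2.12% to 2.82%), when the other 5 sets lay between 0.601% and 1.07%. The gap to the next set was 0.746 of the whole range over sets, more than Dixon's rule allows for 6 values at the 95% level, a rule that flags about 1 in 20 groups by chance. As a share of C1q macrophages, set 4 at 24.9% did not stand apart by the same rule (0.458). The rule was also applied to the highest set for C1q macrophages among all cells (0.558) and for Arg1-high among Cxcl9-low C1q macrophages (0.321). The lowest set of each share was tried as well. None of these was flagged, and the rate of 1 in 20 is that of a single trial. Which group or tumour set 4 came from is not known. The unrecorded step that altered sets 2 to 6 also bears on a fixed threshold. C1q macrophages low in both genes had a mean Arg1 value of 0.25 in set 3 and -0.01 in set 4. The part of that step in the share of set 4 was not tested.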

How the results depend on the processing

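The share of members among C1q macrophages, 14.5%, was 16.5% and 11.1% with Arg1 thresholds of 1 and 2, 12.7% with a C1q threshold of 2 and 16.1% with a Cxcl9 limit of 1.5. Leaving out 1 set at a time moved it beyond its interval for set 3 (16.2%) and set 4 (11.95%). The set 1 share stayed within its interval with cells thinned (12.9%), without doublets (14.4%) and at 2000 to 20000 UMIs (12.4%). Genes 2-fold higher and lower numbered 118 and 169, but 61 and 72 with a pseudocount of 10 CPM, 221 and 326 without a filter, 40 and 58 with at least 100 UMIs, and 77 and 103 against cells low in both genes. Genes past the difference in every set, 10 higher and 27 lower, numbered 23 and 68 past 0.1 and 3 and 7 past 0.5. The lower were 7 against cells low in both genes, and the higher 4 with medians in place of means. The median log2 ratio of resident-type and scavenger genes, -0.01, turned to 0.351 and 0.0176 with Arg1 thresholds of 1 and 2, 0.0372 with a C1q threshold of 2, 0.155 without a filter and with at least 100 UMIs, and 0.717 against Cxcl9-positive cells. The cause of these changes was not tested. Of 918 single-gene values under 18 alternatives, 790 stayed within their interval, 128 moved and 0 turned direction. The ratios of 23 of the 51 genes, among them Mmp12, Mmp13, Ctsl, Hmox1, Slc7a2, Hilpda, Ero1l, Adam8, Fabp5, H2-Aa, H2-Ab1, H2-Eb1 and Cd74, stayed within 1.5 times their value in all 18. Leaving out the member cell richest in a gene, and members with 1 Arg1 UMI, were added after seeing the data. No paired analysis was possible because no cell set is tied to a group or replicate of the labels, and members were compared with others within each set. Depth is known for set 1 alone.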
